A study of Homo sapiens with 14 samples.

Results

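The immunoglobulin light chain loci hold the gene segments from which B cells and plasma cells assemble the kappa chain (IGK, chromosome 2) and the lambda chain (IGL, chromosome 22). Their members were the GENCODE genes of an immunoglobulin type whose names begin with IGK or IGL and that lie in the clusters at chr2:88857161-90235370 and chr22:22026076-22923034 (hg38), which gave 169 of 62700 annotated genes. IGK held 82 of them, made up of 44 V genes, 32 V pseudogenes, 5 J genes and 1 constant gene, and IGL held 87, made up of 37 V genes, 36 V pseudogenes, 7 J genes, 4 constant genes and 3 constant pseudogenes. Across these clusters and 100 kb on each side, the reference peaks of both multiple myeloma (MM) cell lines of the study were described by position, by support and by overlap between the lines. The clusters held 117 of 72802 MM.1S reference peaks and 66 of 79969 RPMI8226 reference peaks, and the flanks held 22 and 26 more.

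Accessible chromatin was profiled by Omni-ATAC, in which a transposase inserts adapters into open DNA, in 14 libraries of MM cells that were sorted as CD90-CD38+ cells. MM.1S gave 9 libraries and RPMI8226 gave 5. Cells were grown as a monoculture (MONO; 3 MM.1S libraries and 1 RPMI8226 library), above HS5 cells and parted from them by the transwell membrane (TSW; 3 and 2 libraries), or below it and touching them (CO; 3 and 2 libraries), HS5 being a human bone marrow stromal line. Each line had 1 deposited list that pools these conditions, so that no value for a single library or condition was used here, and each line is 1 cell culture model of 1 tumour. The whole number beside each peak ran from 3 to 9 in MM.1S and from 3 to 5 in RPMI8226 and was read as its support, the number of libraries with the peak. By the paper, a peak entered the list of a line if at least 3 of its samples had it, which is 3 of 9 MM.1S but 3 of 5 RPMI8226 libraries. A peak that fell short of this rule in 1 line counts as lacking there. Peaks of the 2 lines with at least 1 bp in common were called shared. The lists hold no read counts, and the 2 lists were not tested against each other: the values below are counts and shares, with Wilson 95% intervals that cover counting error only. By the read totals in the study's supplement, which were not used as values here, most MM.1S libraries were deeper than the RPMI8226 libraries and a MONO library of MM.1S was far shallower than the rest. Lower depth and a lack of peaks in RPMI8226 cannot be told apart from the lists, although the RPMI8226 list is the longer one.

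A light chain gene is built by joining 1 V segment to 1 J segment, after which the constant (C) segment is reached by splicing. The joining removes or inverts the DNA between the chosen segments. Kappa is usually joined before lambda, and a lambda-producing cell often carries kappa alleles that were joined or deleted; MM.1S and RPMI8226 are both known as lambda producers. Each V segment has its own promoter, which typically carries an octamer element bound by the POU factors OCT1 and OCT2 with their coactivator OBF1. Transcription also depends on enhancers, which in IGK lie between J and C and beyond the constant gene, and in IGL lie beyond the last constant gene. Enhancers of both loci are known to bind IRF4 with the ETS factors PU.1 or SPIB, and E proteins such as E2A.

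Promoters are shown for the V genes, since the octamer was found before most of them. The 110 bases before the start of 5 V genes with a peak in both lines are printed 5′ to 3′ on the gene's own strand, from hg38, with the octamer in capitals. All 5 have the octamer, as had 16 of the 18 V genes with a peak in both lines. In IGK only 1 of 3 such genes had it before the start, the IGKV6D-41 gene printed here.
IGLV4-69, chr22:22030824-22030933 (plus strand): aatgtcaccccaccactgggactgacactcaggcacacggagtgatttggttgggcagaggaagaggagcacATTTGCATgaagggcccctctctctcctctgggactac
IGLV6-57, chr22:22195689-22195798 (plus strand): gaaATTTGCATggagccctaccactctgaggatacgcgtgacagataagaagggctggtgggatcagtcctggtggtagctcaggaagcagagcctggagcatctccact
IGLV3-19, chr22:22720513-22720622 (plus strand): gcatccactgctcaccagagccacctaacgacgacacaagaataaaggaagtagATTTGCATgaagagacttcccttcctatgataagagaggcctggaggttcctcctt
IGLV2-14, chr22:22758590-22758699 (plus strand): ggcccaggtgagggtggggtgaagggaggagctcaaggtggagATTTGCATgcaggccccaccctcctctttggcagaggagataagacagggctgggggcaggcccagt
IGKV6D-41, chr2:90069552-90069661 (plus strand): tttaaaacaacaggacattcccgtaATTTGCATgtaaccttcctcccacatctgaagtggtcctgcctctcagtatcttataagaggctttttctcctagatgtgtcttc
On the gene's strand each of these octamers reads ATTTGCAT, the reverse complement of the motif ATGCAAAT.

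The peaks around the J and C genes and past the constant genes include the known enhancer positions of both loci, so stretches of 200 bases of 6 of them are printed on the plus strand of hg38. Each stretch was centred on the GGAANNGAA match nearest the middle of the peak, or on the middle where the peak had no match. Capitals mark the ETS-IRF composite GGAANNGAA and the E-box CAGGTG on either strand. The first 3 were RPMI8226 peaks without an MM.1S peak, the fourth was an MM.1S peak and the fifth an RPMI8226 peak without a counterpart, and the last was called in every library of both lines.
IGK J-C interval peak, chr2:88858160-88858359: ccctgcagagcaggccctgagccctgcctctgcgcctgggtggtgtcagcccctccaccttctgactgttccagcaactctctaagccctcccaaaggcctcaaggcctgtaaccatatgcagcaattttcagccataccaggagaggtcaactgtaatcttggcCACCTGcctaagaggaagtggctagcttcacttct
IGK 11.2 kb peak, chr2:88845916-88846115: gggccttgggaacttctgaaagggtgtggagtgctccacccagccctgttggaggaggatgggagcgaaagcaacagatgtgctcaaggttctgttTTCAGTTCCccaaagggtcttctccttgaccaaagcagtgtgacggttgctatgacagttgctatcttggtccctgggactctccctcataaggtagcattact
IGK 18.7 kb peak, chr2:88838363-88838562: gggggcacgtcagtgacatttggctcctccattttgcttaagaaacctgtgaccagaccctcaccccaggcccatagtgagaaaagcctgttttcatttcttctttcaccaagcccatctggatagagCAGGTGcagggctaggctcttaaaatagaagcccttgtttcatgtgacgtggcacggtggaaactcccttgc
IGLC1 peak, chr22:22896366-22896565: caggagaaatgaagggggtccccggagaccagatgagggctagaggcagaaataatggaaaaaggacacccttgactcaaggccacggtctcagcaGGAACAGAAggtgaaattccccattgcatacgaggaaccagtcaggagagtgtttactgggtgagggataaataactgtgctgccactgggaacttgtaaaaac
IGLC2 peak, chr22:22902041-22902240: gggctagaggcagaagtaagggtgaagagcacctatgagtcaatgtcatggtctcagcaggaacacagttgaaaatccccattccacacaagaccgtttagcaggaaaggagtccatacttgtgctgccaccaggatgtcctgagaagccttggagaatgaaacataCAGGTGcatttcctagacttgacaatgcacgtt
IGL 12.5 kb peak, chr22:22935653-22935852: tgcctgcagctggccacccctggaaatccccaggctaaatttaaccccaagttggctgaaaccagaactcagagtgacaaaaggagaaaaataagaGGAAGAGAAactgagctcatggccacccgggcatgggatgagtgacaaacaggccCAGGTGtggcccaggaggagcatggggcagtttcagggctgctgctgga
The GGAANNGAA motif was found in the central 300 bases of 9.32% of all MM.1S peaks and 10.5% of all RPMI8226 peaks, and CAGGTG in those of 35.5% and 34.7%. Printed stretches were placed on GGAANNGAA matches where there were any, so these shares are no measure for the capitals above. A match is only a run of letters and was not tested for binding.

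**Figure D1:**
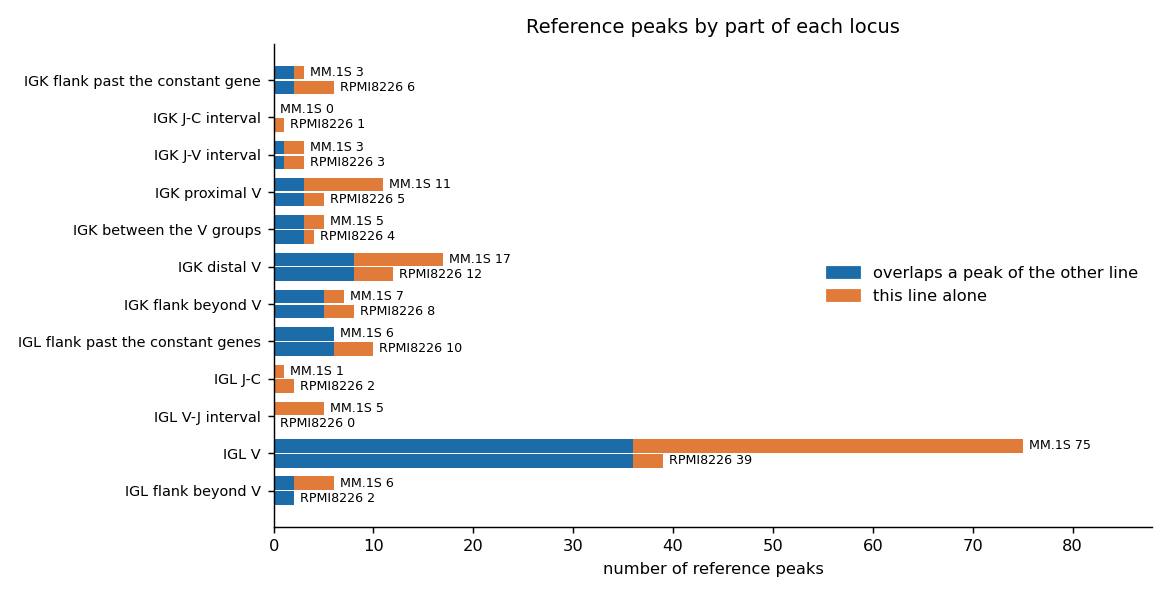
Horizontal bars give the number of reference peaks (x axis) in each part of IGK and IGL, with the MM.1S bar above the RPMI8226 bar; blue is the number that overlap a peak of the other line and orange the number of that line alone. In the IGL V part, 36 peaks of each list are blue, out of 75 for MM.1S and 39 for RPMI8226.

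The lambda locus held more peaks than the kappa locus in both lines, and 45 of its MM.1S peaks had no RPMI8226 counterpart. The IGL cluster held 81 MM.1S peaks, or 90.3 per Mb, and 41 RPMI8226 peaks, or 45.7 per Mb, against 23.6 and 25.9 per Mb over chromosomes 1 to 22, X and Y. The IGK cluster held 36 and 25 peaks, or 26.1 and 18.1 per Mb. All lengths behind these rates include any unsequenced bases. With peaks in over 50% of a line's libraries, the IGK counts were 25 in both lines and the IGL counts 74 and 41. Of the MM.1S peaks in IGL, 36 of 81 (44.4%, 34.1 to 55.3) were shared, below the 64.6% of the whole MM.1S list. Of the RPMI8226 peaks in IGL, 36 of 41 (87.8%, 74.5 to 94.7) were shared, above the 62.0% of the whole RPMI8226 list. The 41 RPMI8226 peaks limit how many of the 81 MM.1S peaks could be shared. Both shares therefore partly restate the difference in counts. With an overlap of at least 50% of both peaks, these shares were 29.6% against 51.8% and 58.5% against 47.2%. In IGK, 15 of 36 MM.1S peaks (41.7%, 27.1 to 57.8) and 15 of 25 RPMI8226 peaks (60%, 40.7 to 76.6) were shared. Over both clusters the shares were 51 of 117 (43.6%, 34.9 to 52.6) and 51 of 66 (77.3%, 65.8 to 85.7).

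Support differed between the loci in MM.1S, a difference that was not tested. There, 51 of 81 IGL peaks (63%, 52.1 to 72.7) were called in every library, but 8 of 36 IGK peaks (22.2%, 11.7 to 38.1), against 52.0% of the whole list. Another 12 IGL peaks (14.8%) and 11 IGK peaks (30.6%) were in 8 of 9 libraries, against 13.2% of the list. The lists do not tell whether these lacked the shallow MONO library. In 6 or fewer libraries were 13 IGL peaks (16%) and 14 IGK peaks (38.9%), against 27.7%. In RPMI8226 the shares called in every library were 24 of 41 in IGL (58.5%, 43.4 to 72.2) and 13 of 25 in IGK (52%, 33.5 to 70), against 64.1% of the whole list. Among MM.1S peaks of at least the list's median width, 6 of 10 IGK peaks (60%) and 41 of 49 IGL peaks (83.7%) were in every library, against 78.6% of the whole list. Peaks in IGL were also wide in MM.1S, with a median of 632 bp against 536 bp in the list, while those in RPMI8226 had 380 against 362 bp. In 34 of the 36 shared pairs in IGL the MM.1S peak was the wider, with medians of 677 and 381 bp. The lists themselves differ in width in the same direction.

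The kappa and lambda V parts are not equally visible to the assay. The authors left out reads that map to several places, and the IGK V genes lie in a proximal group and in an inverted copy of it farther from the constant gene. The share of 50-base words that occur once in hg38 was computed over all positions, and words with unsequenced bases counted as not unique. It was 48.5% in the proximal and 41.2% in the distal IGK V group, 23.8% between them and 87.6% in the IGL V part. A low share can therefore stand for repeated or for unsequenced DNA, and these were not separated. The IGK J and C parts had 100% unique words. Low peak numbers or low support in IGK V parts and these low shares cannot be told apart.

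**Figure D2:**
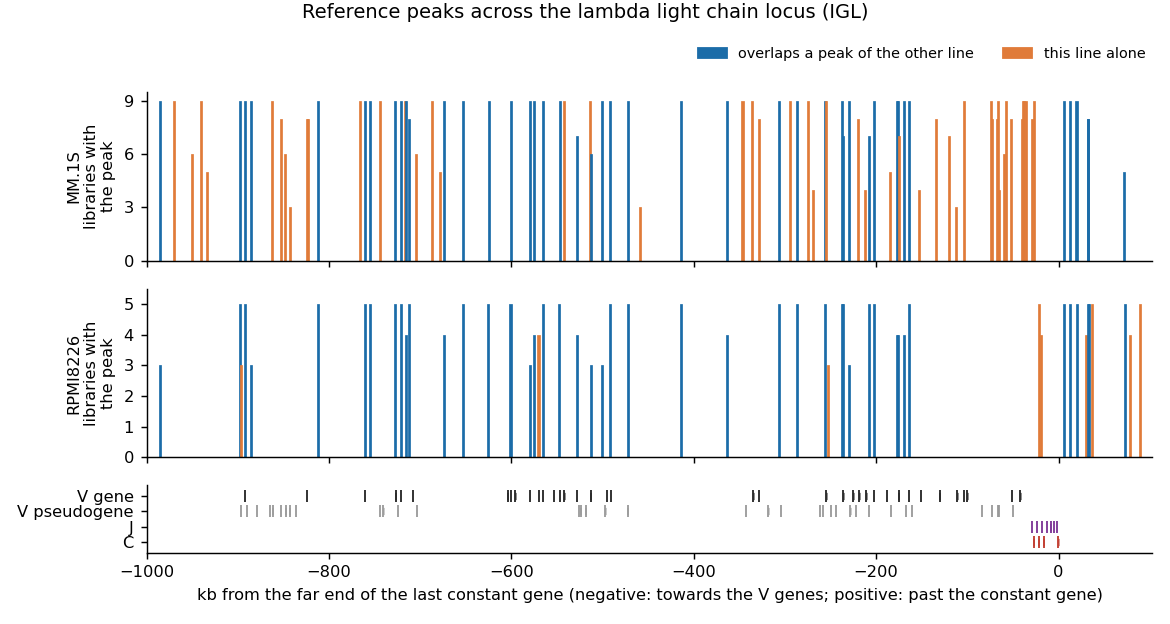
Vertical bars mark the reference peaks of MM.1S (top) and RPMI8226 (middle) along IGL, with height giving the number of libraries with the peak; the bottom rows mark V genes, V pseudogenes, J and C genes, and the x axis is the distance in kb from the far end of IGLC7. RPMI8226 has no bar over the 143 kb before IGLC2, where MM.1S has 19 peaks; bars are drawn wider than the peaks.

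The largest stretch of IGL without an RPMI8226 peak ran for 143 kb from the IGLV2-14 peak to the far side of IGLC2 (chr22:22758870-22901572). It held 19 MM.1S peaks, 8 of them called in every MM.1S library, and 94.4% of its 50-base words were unique. Inside lay 7 V genes, 6 V pseudogenes, IGLJ1, IGLJ2, IGLC1 and IGLC2. MM.1S had a peak at the starts of IGLV3-9 (9 libraries) and IGLV4-3 (8 libraries) and of the pseudogenes IGLV2-5 (9), IGLV3-6 (8) and IGLV3-4 (4). The IGLV3-9 peak was 1501 bp wide, the third widest MM.1S peak of the cluster. A peak list does not tell closed chromatin from DNA that a line has lost, and which applied in this stretch was not tested.

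On either edge of that stretch RPMI8226 had peaks with full support. At IGLV2-14 the peak was called in 9 of 9 MM.1S and 5 of 5 RPMI8226 libraries, and 70% of the words around its start were unique. On the constant side, the widest RPMI8226 peak of the cluster covered 1137 bp just past IGLC2 (chr22:22901573-22902709; 5 of 5 libraries), and a peak of 245 bp stood before IGLJ3 (chr22:22903733-22903977; 4 of 5). Neither overlapped an MM.1S peak. The start of IGLC2 itself had only 36.4% unique words and that of IGLC3 34.8%, and neither gene had a peak within 500 bp of its start in either line.

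MM.1S had its widest light chain peak at IGLC1, the constant gene nearest the V genes. That peak spanned 2683 bp (chr22:22894674-22897356), was called in 9 of 9 libraries and held 2 matches to GGAANNGAA and 4 to CAGGTG. A second MM.1S peak lay at IGLJ1 (chr22:22893372-22893729; 8 of 9 libraries). Between the V and J genes MM.1S had 5 peaks by midpoint, the IGLJ1 peak among them, and RPMI8226 had 0. Of the 5, 3 were in every library. One of the 5 covered the start of IGLL5, a gene related to the surrogate light chain whose transcript runs into IGLC1 (chr22:22887527-22888005; 9 of 9). From IGLJ2 to IGLC7 MM.1S had no peak, and over IGLC1 and IGLJ1 RPMI8226 had none.

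**Figure D3:**
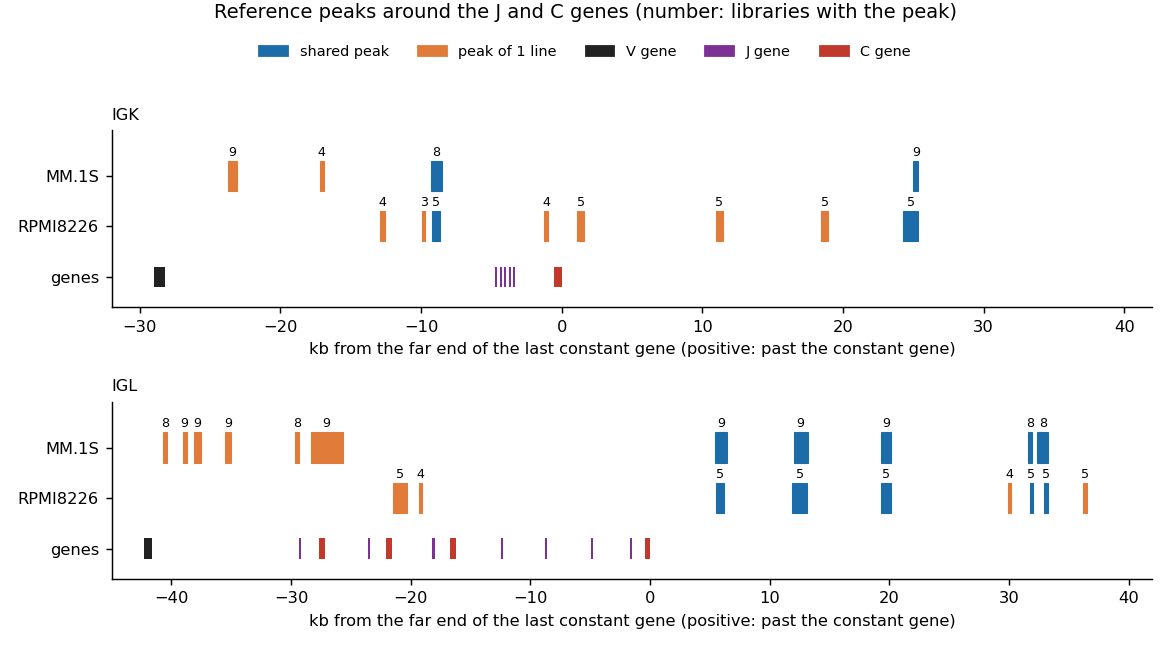
Boxes drawn to scale mark the reference peaks around the J and C genes of IGK (top) and IGL (bottom) by distance in kb from the far end of the last constant gene; the number over each box is the number of libraries with the peak, blue boxes are shared, and the bottom row shows V, J and C genes. In IGK, 4 RPMI8226 peaks stand in the 33.5 kb around IGKC and the IGKJ genes where MM.1S has none, and each line has further boxes of its own towards the V genes. Past the IGL constant genes the MM.1S boxes all have a blue RPMI8226 partner.

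Past the last lambda constant gene, where the IGL enhancers lie, the lines shared all MM.1S peaks. The 100 kb past IGLC7 held 6 MM.1S peaks, 6 of which were shared, and 10 RPMI8226 peaks, 6 of which were shared. The nearest 3 were called in every library of both lines. The first lay 5.96 kb past IGLC7 in MM.1S (chr22:22928483-22929512) and 5.85 kb past it in RPMI8226 (chr22:22928546-22929230). The second lay 12.6 kb past IGLC7 in MM.1S (chr22:22935034-22936215, 1182 bp) and 12.5 kb past it in RPMI8226 (chr22:22934898-22936193, 1296 bp), with 1 match to GGAANNGAA in the MM.1S peak and 2 in the RPMI8226 peak. The third lay 19.7 kb past IGLC7 in both (chr22:22942313-22943190 and chr22:22942377-22943176). A pair 31.8 and 32.8 kb past IGLC7 was in 8 of 9 MM.1S and 5 of 5 RPMI8226 libraries, and a peak 72.3 kb past it was in 5 of 9 and 5 of 5. The 4 RPMI8226 peaks without an MM.1S counterpart lay 30, 36.4, 78.1 and 89.3 kb past IGLC7 and were in 4, 5, 4 and 5 libraries.

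At the kappa constant end RPMI8226 had peaks that MM.1S lacked. MM.1S had no peak for 33.5 kb around IGKC and the 5 IGKJ genes (chr2:88832163-88865704), a stretch with 99.1% unique words. RPMI8226 had 4 peaks there, 3 of them in 5 of 5 libraries. One lay in the J-C interval, where the intronic enhancer of IGK is known to lie (chr2:88858106-88858415; 4 of 5 libraries), with 2 matches to CAGGTG. The others lay past IGKC, on the side of its 3′ enhancers, at 1.34 kb (chr2:88855571-88856068), 11.2 kb (chr2:88845724-88846198) and 18.7 kb (chr2:88838232-88838695). The 11.2 kb peak held 1 match to GGAANNGAA and 1 to CAGGTG, the 18.7 kb peak held 1 to CAGGTG, and the 1.34 kb peak held neither. None of the IGKJ genes had a peak within 500 bp of its start in either line. Whether MM.1S had closed chromatin or lost DNA in the 33.5 kb cannot be told from a peak list and was not tested.

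Peaks of both lines bounded this stretch. On the far side of IGKC, MM.1S had a peak of 363 bp (chr2:88831800-88832162; 9 of 9 libraries) and RPMI8226 one of 1115 bp that began at nearly the same base (chr2:88831805-88832919; 5 of 5). The RPMI8226 peak held 2 matches to CACAGTG, the heptamer of recombination signals, in the bases that the MM.1S peak did not cover. Neither match lay in its central 300 bases, where the motif was found in 8.84% of MM.1S and 9.29% of RPMI8226 peaks. On the V side, a shared peak stood beyond IGKJ1, 3894 bp from its start in RPMI8226 (chr2:88865705-88866420 in 8 of 9 MM.1S libraries and chr2:88865817-88866382 in 5 of 5 RPMI8226 libraries). Farther towards the V genes, MM.1S alone had a peak in 9 of 9 libraries (chr2:88880261-88880916) and one in 4 of 9 (chr2:88874074-88874357). RPMI8226 alone had peaks in 3 of 5 (chr2:88866862-88867079) and 4 of 5 libraries (chr2:88869713-88870046).

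**Figure D4:**
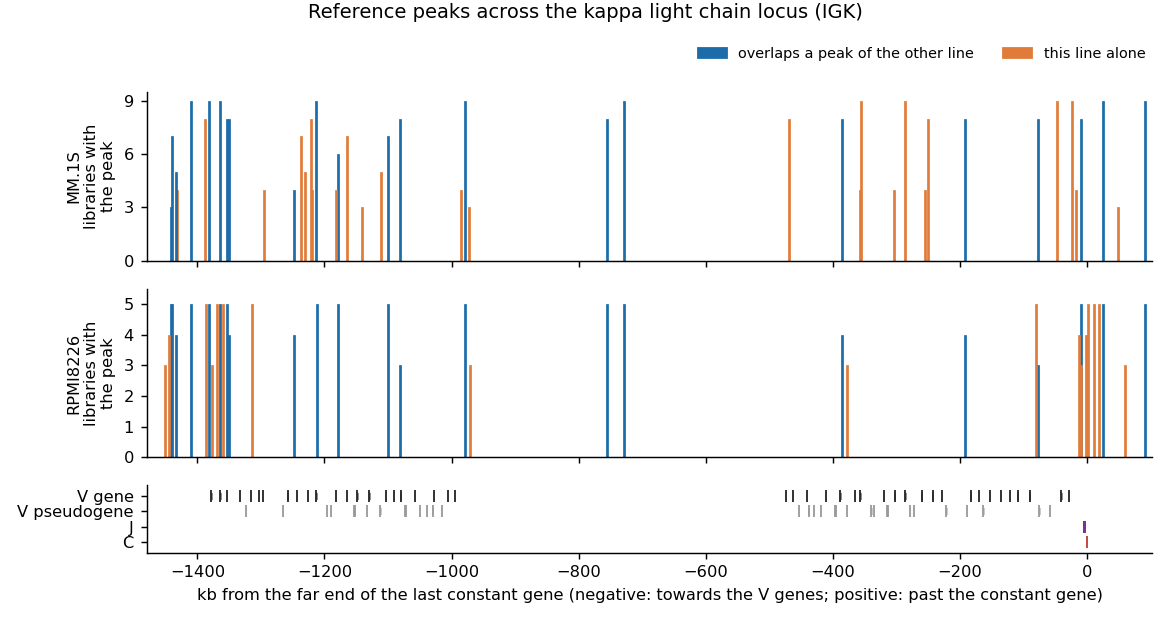
Vertical bars mark the reference peaks of MM.1S (top) and RPMI8226 (middle) along IGK, with height giving the number of libraries with the peak; the bottom rows mark V genes, V pseudogenes, J and C genes, and the x axis is the distance in kb from the far end of IGKC. The 11 proximal V peaks of MM.1S and 5 of RPMI8226 are sparser than the peaks of IGL, and bars are drawn wider than the peaks.

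Peaks stood at the starts of V genes in both loci, at a higher share of them in IGL than in IGK. A peak within 500 bp of the start was present at 29 of 81 V genes in MM.1S (35.8%) and at 20 of 81 in RPMI8226 (24.7%), against 61.3% and 54.4% of 20033 protein-coding genes, and 18 V genes had one in both lines. In IGL the numbers were 21 of 37 in MM.1S (56.8%), 16 of 37 in RPMI8226 (43.2%) and 15 in both. In IGK they were 8 of 44 (18.2%), 4 of 44 (9.09%) and 3 in both. The median share of unique words around the start was 98.1% for IGL V genes and 32.9% for IGK V genes. Among the 15 IGK V genes with at least 50% unique words, 5 had an MM.1S and 3 an RPMI8226 peak. Counting only peaks that cover the start itself lowered the RPMI8226 share in IGL to 21.6%. Among V pseudogenes, 11 of 68 had a peak in MM.1S (16.2%) and 3 of 68 in RPMI8226 (4.41%).

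**Figure D5:**
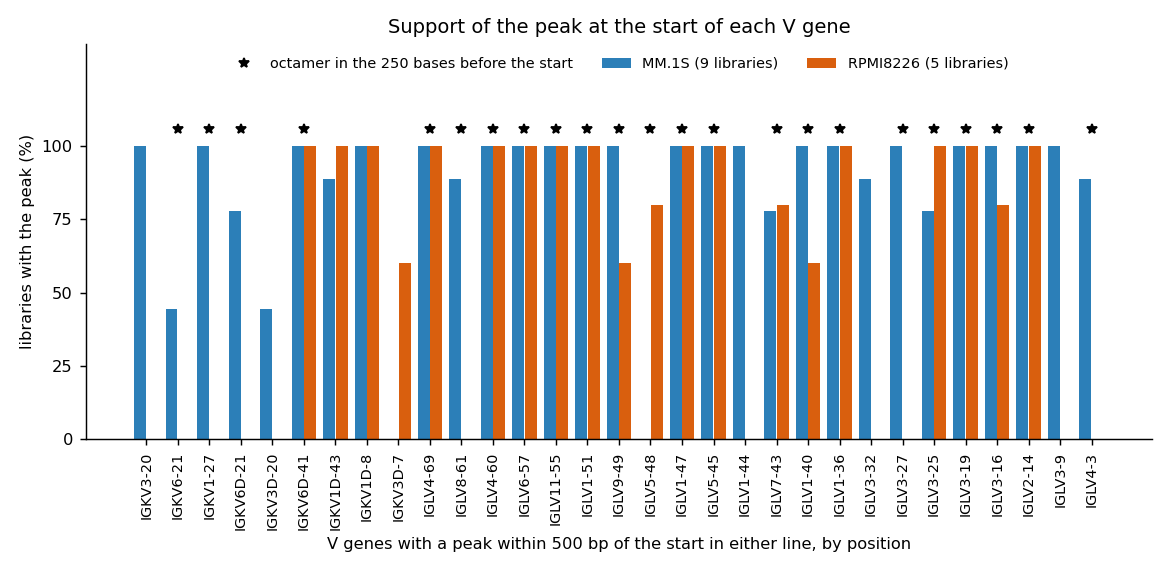
Bars give the percentage of libraries with the peak (y axis) at each of the 31 V genes with a peak within 500 bp of the start in either line, MM.1S in blue (of 9 libraries) and RPMI8226 in orange (of 5), in order of position; a star marks the octamer in the 250 bases before the start. All 15 IGL V genes with both bars have a star.

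The lambda V genes with full support in both lines were IGLV4-69, IGLV4-60, IGLV6-57, IGLV11-55, IGLV1-51, IGLV1-47, IGLV5-45, IGLV1-36, IGLV3-19 and IGLV2-14, which made 10 of the 15 with a peak in both. The other 5 were IGLV9-49 (9 of 9 MM.1S and 3 of 5 RPMI8226 libraries), IGLV1-40 (9 and 3), IGLV3-16 (9 and 4), IGLV7-43 (7 and 4) and IGLV3-25 (7 and 5). Peaks of MM.1S alone stood at IGLV1-44, IGLV3-27 and IGLV3-9 in 9 of 9 libraries and at IGLV8-61, IGLV3-32 and IGLV4-3 in 8 of 9. IGLV5-48 was the only IGL V gene with a peak in RPMI8226 alone, in 4 of 5 libraries. By family, IGLV1 had peaks at 5 of 6 genes in MM.1S and 4 of 6 in RPMI8226, IGLV3 at 6 and 3 of 11, and IGLV2 at 1 of 6 in each line, at IGLV2-14. All 3 IGLV4 genes had an MM.1S peak and 2 an RPMI8226 peak.

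The kappa V genes with a peak in both lines all lay in the distal group. IGKV6D-41 and IGKV1D-8 had full support in both lines, and IGKV1D-43 was in 8 of 9 MM.1S and 5 of 5 RPMI8226 libraries. Their starts had 96.2%, 65.9% and 94.7% unique words. Proximal V genes had peaks in MM.1S alone, at IGKV3-20 and IGKV1-27 in 9 of 9 libraries and at IGKV6-21 in 4 of 9. In the distal copies, IGKV3D-20 had an MM.1S peak in 4 of 9 libraries, and IGKV6D-21 had one in 7 of 9 although 11.4% of its words were unique. IGKV3D-7 had a peak in RPMI8226 alone, in 3 of 5 libraries, with 22.1% unique words. The IGKV2 family had no peak within 500 bp of the start of any of its 10 V genes in either line. Within 2500 bp both lines had peaks at IGKV2-30 (8 of 9 and 4 of 5 libraries), IGKV2D-30 (8 and 3) and IGKV2D-28 (7 and 5). The starts of these genes had 45.3%, 44.7% and 28.2% unique words.

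Most peaks of the V parts did not sit at a V start. In IGL, 44 of 75 MM.1S and 20 of 39 RPMI8226 peaks were more than 500 bp from the start of any V gene or pseudogene, with medians of 4.24 and 4.51 kb to the nearest. Of these, 19 in each line were shared, which was 43.2% of the MM.1S and 95% of the RPMI8226 peaks. At V starts 17 peaks in each line were shared, which was 54.8% and 89.5%. In IGK, only 1 of 18 MM.1S peaks away from V starts was in every library (5.56%), against 4 of 10 at V starts. The widest RPMI8226 peaks of IGL after the IGLC2 peak were at V starts, at IGLV3-19 (1020 bp) and IGLV6-57 (957 bp).

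The octamer was found before most V genes, and in a single orientation. It lay in the 250 bases before the start of 55 of 81 V genes (67.9%), against 1.59% of protein-coding genes, and of 20 of 68 V pseudogenes (29.4%). In all 75 of these 149 promoters it read ATTTGCAT on the gene's strand, and in 0 it read ATGCAAAT. In IGL all 15 V genes with a peak in both lines had it, 38 to 107 bases before the start, as had 9 of the 15 with no peak in either line. In IGK 4 of 9 V genes with a peak in either line had it, as had 23 of 35 with none. No IGKV3 gene of 8 had it, while 9 of 10 IGKV2 genes did. At 7 V genes without it before the start, it lay within the 250 bases from the annotated start onwards, again as ATTTGCAT, which made 62 of 81 V genes with it on either side (76.5%). These were IGKV1D-8, IGKV1D-43, IGKV1-5 and IGKV1D-17, where it began at base 87, IGLV1-44 (base 4), IGLV3-9 (base 14) and IGLV2-8 (base 56), and the peaks of both lines at IGKV1D-8 and IGKV1D-43 covered it. At peaks, the octamer was in the central 300 bases of 18 of 81 MM.1S (22.2%) and 8 of 41 RPMI8226 peaks (19.5%) in IGL and of 6 of 36 (16.7%) and 1 of 25 (4%) in IGK, against 2.64% and 2.69% of the whole lists. The kappa B motif GGGACTTTC was in the central bases of 0 cluster peaks of either line, against 0.644% and 0.759% of the whole lists.

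Other protein-coding genes lie among the lambda segments and in the flank beyond them. VPREB1, which encodes a part of the surrogate light chain of pre-B cells, had a peak in 5 of 9 MM.1S libraries and none in RPMI8226, whose nearest peak was 4201 bp away. ZNF280B had a peak in 9 of 9 and 5 of 5 libraries and PRAME, a tumour antigen gene, in 9 of 9 and 4 of 5, while ZNF280A and GGTLC2 had none in either line. Beyond the V genes, PPM1F and TOP3B had peaks in 9 of 9 MM.1S libraries and none in RPMI8226. Both starts lay in 87.2 kb without an RPMI8226 peak that held 4 MM.1S peaks (chr22:21938262-22025455; 92.3% unique words).

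The heavy chain cluster (IGH) gave a comparison with a locus of the same kind. It held 65 MM.1S peaks, of which 6 were shared (9.23%, 4.3 to 18.7), and 10 RPMI8226 peaks, of which 7 were shared (70%, 39.7 to 89.2). Its MM.1S share lay below that of IGL, but the 10 RPMI8226 peaks limit how many of the 65 MM.1S peaks could be shared. The share of unique words was not computed for IGH, and the difference was not tested.

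Genes of light chain control and of the cell types were read in the same way, within 500 bp of the start. Of the 19 transcription factor genes listed for light chain control, 16 had a peak in MM.1S and 10 in RPMI8226, all 10 also in MM.1S. Among protein-coding genes the shares were 61.3% and 54.4%. Whether each listed factor acts on light chain promoters or enhancers was not tested. POU2F1, SPI1, IRF4, TCF3, TCF12, NFKB1, RELA, REL, XBP1 and IKZF3 had one in every library of both lines. POU2AF1, which encodes OBF1, PAX5, EBF1, PRDM1 and IKZF1 had one in 9 of 9 MM.1S libraries and none in RPMI8226, SPIB one in 6 of 9, and POU2F2, IRF8 and MEF2C none in either. Within 2500 bp the numbers were 17 and 14, against 69.4% and 63.7% of protein-coding genes. At that distance POU2AF1, PRDM1 and IKZF1 had a peak in 5 of 5 RPMI8226 libraries, and POU2F2, which encodes OCT2, in 9 of 9 MM.1S and 4 of 5 RPMI8226 libraries. Of 7 recombination and surrogate light chain genes, RAG1 had a peak in every library of both lines, VPREB1 and IGLL5 in MM.1S alone, and RAG2, DNTT, VPREB3 and IGLL1 in neither. Plasma cell markers had peaks at 10 and 8 of 12 genes, and at 12 of 12 in both lines within 2500 bp. Stromal markers had them at 6 and 2 of 12, and at 7 and 4 within 2500 bp. FN1 had a peak in 9 of 9 and 5 of 5 libraries and COL1A2 in 6 of 9 and 3 of 5. Within 500 bp, PDGFRB, TWIST1, SPARC and FBN1 had one in 9 of 9 MM.1S libraries alone. Within 2500 bp, PDGFRB also had one in 5 of 5 RPMI8226 libraries, and COL1A1 had one in 9 of 9 and 5 of 5 libraries only at that distance. COL3A1, THY1, LUM, DCN and POSTN had none within either distance. T cell markers had peaks at 1 of 4 in each line (CD8A) and myeloid markers at 2 of 4 in each. The part of other cells in the light chain peaks was not tested.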

How the data were processed

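Omni-ATAC reads were aligned by the authors to hg38 with Bowtie2, reads mapping to several places were left out, 1 read was kept per position, and peaks were called in each library with MACS3; versions and thresholds are not given in the sources used here. The deposited lists give chromosome, start, end and a number of another kind, read as support (libraries with the peak), with no normalization by the authors. Starts were read as counted from 0 and raised by 1. Groups came from sample titles. Genes came from GENCODE release 44. A peak belonged to a part by its midpoint. Motifs were searched on both strands. Python 3.11.15, numpy 2.4.6 and scipy 1.17.1 were used, and the overlap and motif rules were tested on simulated intervals. No test between lines was run, since each has 1 pooled list. The members, motifs and gene lists were chosen with earlier results of these data known. Named were all C and J genes, V genes with a peak in both lines or in every library of a line, other protein-coding genes of the region, peaks of the J and C parts and of the flank past them that were shared or in every library, the widest peaks and the fixed lists; V genes and J-C peaks outside these were named after their values were seen.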

Additional observations from a re-analysis of the deposited data

How the results depend on the processing

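Counting only peaks called in every library left 8 MM.1S and 13 RPMI8226 peaks in IGK and 51 and 24 in IGL. Among these, 60.8% of MM.1S and 95.8% of RPMI8226 IGL peaks were shared, against 81.3% and 74.1% of the whole lists. With 50% overlap of both peaks the IGL shares were 29.6% and 58.5%. Among peaks of at least the median width, the share in every library was 60% and 100% in IGK and 83.7% and 78.3% in IGL, against 78.6% and 86.1% of the whole MM.1S and RPMI8226 lists. For V genes, the MM.1S share in IGK was 9.09% with peaks of every library and 33.3% among starts with at least 50% unique words, an alternative chosen after seeing the data. The MM.1S share in IGL was 75.7% within 2500 bp, and the RPMI8226 share in IGL was 21.6% with peaks covering the start and 26% with pseudogenes included. With 1 mismatch allowed, 77.3% of IGK V genes had the octamer. With peaks in over 50% of the libraries, MM.1S counts were 25 in IGK and 74 in IGL, against 36 and 81, and RPMI8226 counts were 25 and 41 as before, so the excess of MM.1S in IGK was lost. Shares under the other alternatives stayed within the counting interval. No paired analysis was possible because the lists hold no value for a single library, and no replicate could be left out. Depth and the rule of at least 3 libraries limit every statement that a peak is lacking, and no depth was matched between the lines.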
